A study of Mus musculus with 6 samples.

Results

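The genes described here are 37 markers of T cells, natural killer (NK) cells and B cells, followed in whole mouse kidney. They are a fixed list of symbols, and 51 probes of the array name one of them through a RefSeq accession. Of the 37 genes, 31 had a probe that stood well above background on 3 or more of the 6 arrays and were among the 17131 genes tested. All 31 were well above background on all 6 arrays, so none was kept for its signal in 1 genotype alone. Well above background is the scanner's own flag for a spot. On WT 1 the flagged Eomes spot had a raw signal of 51 units over a local background of 55. The other 6, Cd27, Cd69, Trat1, Ncr1, Cd79a and Blk, were too dim and are described apart.

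The 6 arrays each carried labelled RNA of 1 whole-kidney sample, 3 of Pck1-CKO mice and 3 of wild-type (WT) controls. Pck1-CKO mice were Pck1 flox/flox animals with a γGT-Cre transgene, a driver used to direct deletion to the renal proximal tubule; where Pck1 was deleted in these kidneys cannot be read from the arrays. Controls were littermates of the same age and sex, and the cross gave controls of 3 kinds, flox/+ with γGT-Cre tg/+, flox/+ alone and flox/flox alone; the labels do not tell which of these each WT array holds. All mice were C57BL/6J and were killed at 32 weeks. Since the labels tie no array to an animal of its own, the p-values refer to the spread among these arrays, which may be technical.

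Across all genes 1377 (8.04%) differed at an adjusted p under 0.05, of which 634 were lower and 743 higher in Pck1-CKO (limma), that is, 3.7% and 4.34% of those tested. With arrays scaled on the median of probes above background instead, the counts were 568 lower and 1218 higher. The targeted gene did not separate the labels by a loss of signal: Pck1 had normalised log2 signals of 6.44, 6.60 and 6.90 in Pck1-CKO and 6.29, 6.32 and 5.63 in WT (log2 change 0.56 ± 0.22 SE, limma adjusted p = 0.152). The labels do not place its probe inside or outside the floxed stretch, so Pck1-CKO below means the arrays labelled so. All arrays lay on slide 1 and in scan 1, Pck1-CKO in row 2 of the slide and WT in row 1, so that effects of row and of genotype cannot be told apart. The median local background of a spot was 40, 42 and 39.5 intensity units on the Pck1-CKO arrays and 44, 48 and 46 units on the WT arrays. Every signal below is the log2 of the scanner's processed signal minus that array's 75th percentile, so that 0 is the level of a fairly bright probe, and the level of 1 gene is never set against that of another. Sums over a list add the linear levels of different probes, so bright probes weigh most in them, and they are compared only between arrays.

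Lymphocytes recognise antigen or stressed cells through receptors that lack enzymatic activity of their own. In T cells the receptor is held by the CD3 chains, and the kinases Lck and Zap70 pass its signal to the adaptor Lat. In B cells the antigen receptor signals through Cd79a and Cd79b. NK cells and cytotoxic T cells kill with granules of perforin and granzymes under the control of the T-box transcription factors Eomes and T-bet (Tbx21). A healthy kidney holds resident lymphocytes of all these kinds in small numbers, scattered between the tubules.

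Most lymphocyte genes had a slightly lower mean signal in Pck1-CKO kidneys, and few of them passed the test. Of the 31 tested genes 4 fell (12.9%) and 0 rose at an adjusted p under 0.05, where 3.7% of all genes fell, 4.34% rose and 8.04% passed in either direction. The 4 were the granzyme gene Gzma, the T-box factor genes Eomes and Tbx21, and the B-cell receptor gene Cd79b. A negative log2 change was seen in 26 of 31 genes (83.9%), against 47.8% of all tested genes. The median log2 change was -0.16 over the 31 genes and 0.0092 over all tested genes. In whole-kidney RNA, fewer cells of a type and less RNA per cell cannot be told apart.

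In 12 of the 31 genes (38.7%) all 3 Pck1-CKO arrays lay below all 3 WT arrays, whereas 16.4% of all genes separated in that direction and 38.3% in either. These were Gzma, Nkg7, Prf1, Eomes, Tbx21, Cd79b, Ms4a1, Cd3d, Cd8b1, Lck, Cd2 and Cd6. In none of the 31 did all Pck1-CKO arrays lie above all WT arrays, against 21.9% of all genes. At an unadjusted p under 0.05, 10 of 31 were lower and 0 higher, against 13.7% and 17.5% of all genes. The summed signal of the 31 genes, on the linear scale with 1 as the 75th percentile of an array, was 8.54, 8.28 and 8.23 in Pck1-CKO and 10.04, 10.27 and 9.32 in WT. Without Gzma, left out after its values were seen, the sum was 8.14, 7.89 and 7.70 in Pck1-CKO and 9.02, 9.12 and 8.56 in WT.

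**Figure D1:**
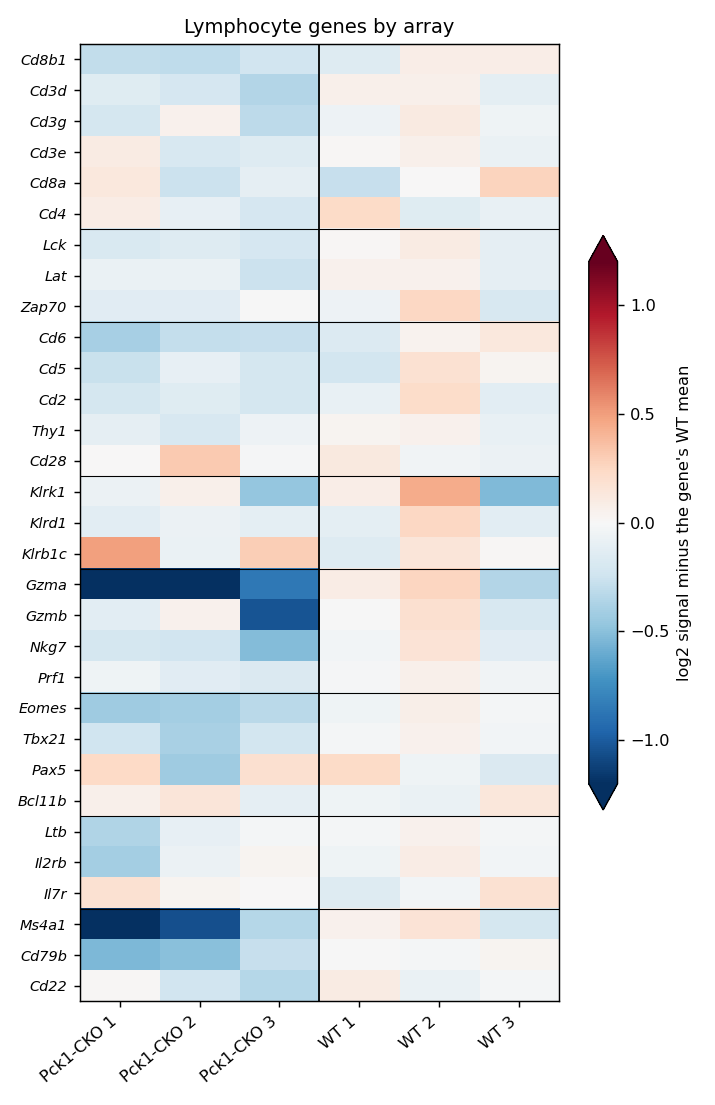
Log2 signal of the 31 tested lymphocyte genes (rows, grouped by role) on each array (columns), as the difference from the gene's WT mean; blue is lower and red is higher. Gzma and Ms4a1 are the darkest rows on the Pck1-CKO side, while Klrb1c, Pax5 and Cd28 are red on at least 1 Pck1-CKO array.

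The call count depended on single arrays. It was 0 of 31 without WT 1, without WT 2, without Pck1-CKO 1 or without Pck1-CKO 2, 2 without WT 3 and 4 without Pck1-CKO 3. The 4 without Pck1-CKO 3 were Gzma, Eomes, Cd79b and Ms4a1, while Tbx21 missed the threshold (limma adjusted p = 0.0533). The calls across all genes fell in the same way, to between 9 and 31 lower genes without any of the first 4 arrays named. The direction of the list was less dependent on them, with 25 to 27 of 31 genes negative and a median log2 change between -0.19 and -0.11 when any 1 array was left out.

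**Figure D2:**
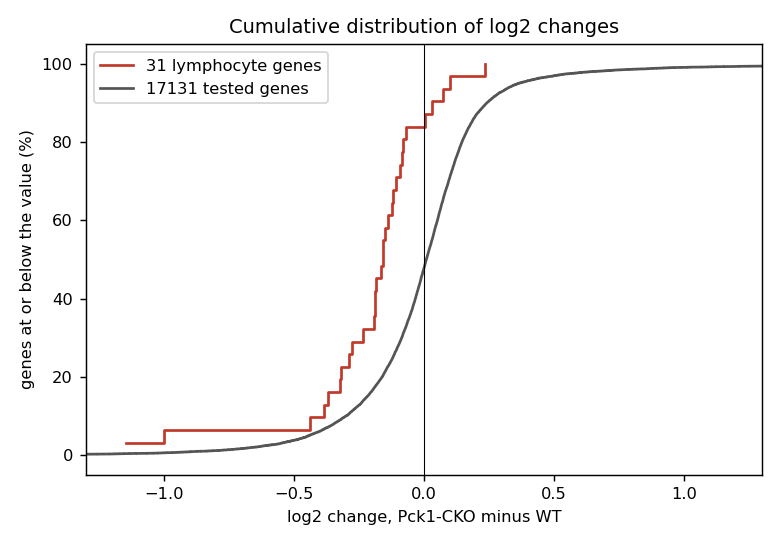
Cumulative share of genes (vertical axis, percent) at or below a log2 change of Pck1-CKO minus WT (horizontal axis), for the 31 lymphocyte genes and for all 17131 tested genes. The lymphocyte curve lies to the left, crossing 0 at 83.9% against 47.8% for all genes.

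Gzma showed the largest change of the list. It encodes granzyme A, a serine protease of cytotoxic granules. Its normalised log2 signal was -1.33, -1.35 and -0.91 in Pck1-CKO and 0.04, 0.21 and -0.40 in WT. The groups did not overlap, and Pck1-CKO 3 and WT 3 lay nearest to each other. The means were -1.2 ± 0.25 in Pck1-CKO and -0.05 ± 0.31 in WT (SD, n = 3 each), a log2 change of -1.15 ± 0.20 (SE), 2.21-fold lower, with limma adjusted p = 0.0349. In scanner units the processed signal was 222, 226 and 311 in Pck1-CKO and 543, 646 and 440 in WT, far above the local background of 36 to 50 units. After background correction with normexp the log2 change was -0.97 (adjusted p = 0.0153). Without WT 1, WT 2, Pck1-CKO 1 or Pck1-CKO 2 it was between -1.10 and -1.02 with adjusted p from 0.10 to 0.127, so the call did not hold without those arrays.

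The other granule genes had smaller negative changes and did not pass. Nkg7, a granule membrane protein gene of NK and cytotoxic T cells, had -1.22, -1.23 and -1.53 in Pck1-CKO and -1.04, -0.84 and -1.14 in WT, a log2 change of -0.32 ± 0.12 (limma adjusted p = 0.131). Prf1, which encodes the pore-forming protein perforin, had -2.73, -2.81 and -2.85 in Pck1-CKO and -2.70, -2.62 and -2.72 in WT. Both genes separated the groups, with log2 changes of -0.32 for Nkg7 and -0.12 for Prf1. Gzmb, encoding granzyme B, had -3.99, -3.81 and -4.90 in Pck1-CKO and -3.87, -3.67 and -4.05 in WT; its groups overlapped and Pck1-CKO 3 stood lowest. Its log2 change of -0.37 had a 95% interval from -1.10 to 0.36. The summed signal of the 4 granule genes was 1.04, 1.03 and 1.05 in Pck1-CKO and 1.74, 1.95 and 1.42 in WT. Gzma carried most of that difference, with linear levels of 0.397, 0.391 and 0.533 in Pck1-CKO and 1.03, 1.15 and 0.757 in WT. The other 3 granule genes summed to 0.643, 0.639 and 0.518 in Pck1-CKO and 0.710, 0.799 and 0.667 in WT.

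Both T-box factor genes fell by small amounts, and their values depended on how the background was removed. Eomes had -5.40, -5.38 and -5.30 in Pck1-CKO and -5.02, -4.91 and -5.00 in WT, a log2 change of -0.39 ± 0.05 (limma adjusted p = 0.0255). Tbx21 had -3.55, -3.70 and -3.53 in Pck1-CKO and -3.32, -3.25 and -3.34 in WT, a log2 change of -0.29 ± 0.06 (limma adjusted p = 0.0477). Arrays within a group lay close together for both genes, and the groups did not overlap.

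Eomes was dim, with raw median spot signals of 44, 48 and 46.5 units in Pck1-CKO and 51, 53.5 and 53 in WT. The local background around those spots was also lower in Pck1-CKO, at 35, 42.5 and 36 units, against 55, 51 and 45 in WT. With normexp, which starts from these raw and local background signals, the log2 change of Eomes was 0.0039 (adjusted p = 0.968). For Tbx21 the raw signals were 85.5, 78 and 84 units in Pck1-CKO and 87.5, 93 and 92.5 in WT, over local backgrounds of 36, 37 and 38 in Pck1-CKO and 42, 45 and 50 in WT. The normexp change of Tbx21 was -0.09 (adjusted p = 0.377). Tbx21 passed under 2 of 16 alternative settings and under none of the 6 that left out an array. Eomes passed under 7 of 16, and not without WT 1, WT 2, Pck1-CKO 1 or Pck1-CKO 2 (adjusted p from 0.0805 to 0.117).

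Promoters of these cytotoxic genes are shown because RUNX and T-box factors are known to act on granzyme genes. RefSeq windows (GRCm38.p6) from 250 bases before to 50 bases after the start were given for 25 of the 37 genes, in 29 windows, and include 3 of the 4 genes that fell. Below, capitals mark matches on either strand to GGTGTGA (T-box), TGTGGTT (RUNX), AGGAAGT (ETS) or the EBF motif (TCCC, any 2 bases, then GGGA), and no marked matches overlap.
Gzma (chr13:113100932-113101231, minus strand): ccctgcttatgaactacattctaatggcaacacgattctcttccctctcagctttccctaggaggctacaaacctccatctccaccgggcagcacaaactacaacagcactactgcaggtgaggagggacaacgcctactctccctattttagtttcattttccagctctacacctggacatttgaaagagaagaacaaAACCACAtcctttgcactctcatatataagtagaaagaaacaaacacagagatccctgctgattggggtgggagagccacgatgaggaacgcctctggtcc
Gzmb (chr14:56262285-56262584, minus strand): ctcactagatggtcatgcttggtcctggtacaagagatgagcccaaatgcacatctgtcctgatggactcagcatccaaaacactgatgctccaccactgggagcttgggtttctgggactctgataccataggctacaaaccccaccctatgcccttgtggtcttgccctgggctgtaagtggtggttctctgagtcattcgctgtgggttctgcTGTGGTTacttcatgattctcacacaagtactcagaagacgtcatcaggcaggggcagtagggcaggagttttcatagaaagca
Eomes (chr9:118477939-118478238, plus strand): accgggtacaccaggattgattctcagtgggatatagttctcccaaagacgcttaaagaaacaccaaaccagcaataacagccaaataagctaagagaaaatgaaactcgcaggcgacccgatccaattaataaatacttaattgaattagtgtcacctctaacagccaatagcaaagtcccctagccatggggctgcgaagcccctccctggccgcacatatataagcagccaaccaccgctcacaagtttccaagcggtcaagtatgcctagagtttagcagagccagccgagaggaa
Tbx21 (chr11:97115282-97115581, minus strand): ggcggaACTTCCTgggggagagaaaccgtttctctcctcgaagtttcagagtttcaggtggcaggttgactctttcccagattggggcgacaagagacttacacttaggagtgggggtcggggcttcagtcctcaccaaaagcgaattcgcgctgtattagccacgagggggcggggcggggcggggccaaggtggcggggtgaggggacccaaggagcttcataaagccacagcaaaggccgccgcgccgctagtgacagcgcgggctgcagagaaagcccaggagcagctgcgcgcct

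Both granzyme windows hold 1 RUNX match, on the reverse strand at 51 bases before the start in Gzma and on the given strand at 34 bases before it in Gzmb. The Tbx21 window holds 1 ETS match near its far end, and the Eomes window holds no match to any of the 4 motifs. A RUNX match was found for 6 of 25 genes with a window, Gzma, Gzmb, Il7r, Klrk1, Lck and Ncr1. Counted by window, it was in 7 of the 29 lymphocyte gene windows and in 5.27% of all 32851 windows. The ETS letters were found for 8 of 25 genes, Cd3d, Cd3e, Cd5, Cd79a, Il7r, Lck, Prf1 and Tbx21. By window, they were in 9 of these 29 and in 9.35% of all windows. The T-box letters were found for 2 genes, Nkg7 and Trat1 (2 of 29 windows, against 3.98% of all windows). The EBF letters were found for 1, Cd22 (1 of 29 windows, against 0.904%). These counts describe letters in a window and say nothing of binding in these kidneys.

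Of 4 NK receptor genes 3 were tested, and none passed. Klrd1 encodes CD94, a partner chain of inhibitory and activating NK receptors, and had -2.94, -2.88 and -2.93 in Pck1-CKO and -2.93, -2.56 and -2.93 in WT. Klrk1 encodes NKG2D, a receptor for stress-induced ligands, and had -3.35, -3.22 and -3.75 in Pck1-CKO and -3.21, -2.84 and -3.81 in WT. For both, WT 2 was the highest array and the groups overlapped; for Klrk1, WT 3 was the lowest array of all. Klrb1c encodes NK1.1, the classical NK marker of C57BL/6 mice, and its brightest probe read -4.49, -5.06 and -4.69 in Pck1-CKO and -5.14, -4.84 and -4.97 in WT. A second kept probe of Klrb1c read the other way, -5.79, -5.51 and -6.04 in Pck1-CKO and -5.63, -5.19 and -4.87 in WT. Klrb1c belongs to a family of close copies, so its direction is uncertain. The fitted log2 changes were -0.11 for Klrd1, -0.16 for Klrk1 and 0.24 for Klrb1c, with limma adjusted p = 0.535, 0.728 and 0.362.

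**Figure D3:**
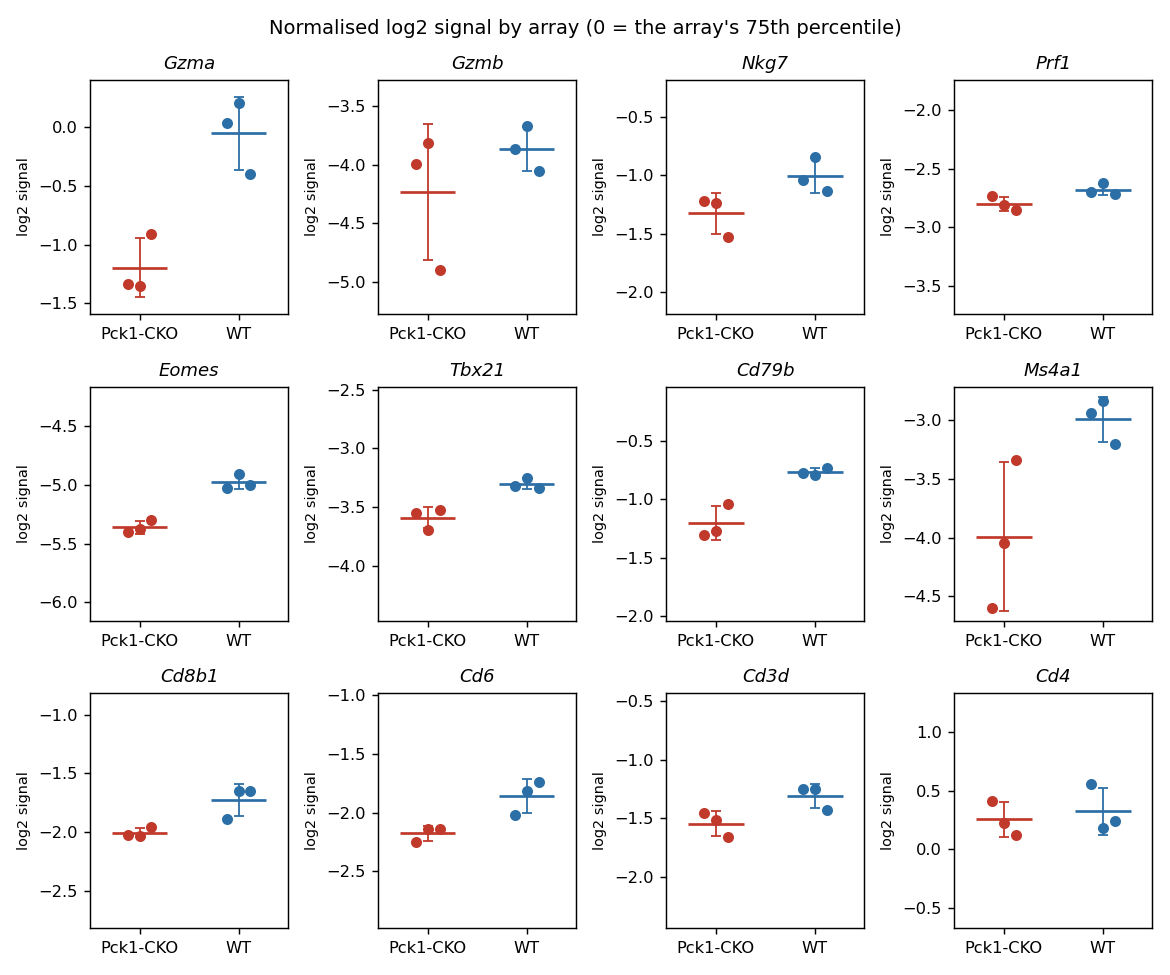
Normalised log2 signal of 12 lymphocyte genes on each array, Pck1-CKO left and WT right; points are arrays, lines are means, bars are SD (n = 3), and each panel spans 2 log2 units. Gzma, Cd79b, Eomes and Tbx21 separate the groups and passed the test, Ms4a1 separates them with a wide Pck1-CKO spread, and Gzmb and Cd4 overlap.

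Among B-cell genes, Cd79b fell and the others did not pass. Cd79b, the signalling chain Ig-beta of the B-cell receptor, had -1.3, -1.27 and -1.04 in Pck1-CKO and -0.77, -0.79 and -0.73 in WT. The WT arrays lay within 0.06 of each other and above every Pck1-CKO array. The means were -1.2 ± 0.14 in Pck1-CKO and -0.77 ± 0.03 in WT (SD, n = 3 each), a log2 change of -0.44 ± 0.08 (SE), 1.36-fold lower, with limma adjusted p = 0.0356. The local background around its spots was 32 to 36 units in Pck1-CKO and 32 to 37 in WT, and with normexp the log2 change was -0.36 (adjusted p = 0.0150). Without any 1 of WT 1, WT 2, WT 3, Pck1-CKO 1 or Pck1-CKO 2 it did not pass (adjusted p from 0.0624 to 0.133), while without Pck1-CKO 3 it was -0.52 (adjusted p = 0.0123).

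Ms4a1 encodes CD20, a surface protein of mature B cells. It had -4.60, -4.04 and -3.34 in Pck1-CKO and -2.94, -2.83 and -3.21 in WT, so the groups did not overlap but the Pck1-CKO arrays spread widely, with SD 0.63 against 0.19 in WT. Its log2 change of -1.0 ± 0.32, 2.0-fold lower, missed the threshold (limma adjusted p = 0.103). Without Pck1-CKO 3 it was -1.33 (adjusted p = 0.0337), and with normexp -0.45 (adjusted p = 0.0593). Its second probe read -4.32, -4.86 and -3.95 in Pck1-CKO and -3.80, -4.11 and -4.08 in WT, a smaller difference of -0.38 with overlapping groups.

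Cd22, an inhibitory co-receptor of B cells, had -0.69, -0.92 and -1.04 in Pck1-CKO and -0.60, -0.77 and -0.72 in WT, a log2 change of -0.19 (limma adjusted p = 0.269). A dimmer kept Cd22 probe differed in the same direction, by -0.45. Pax5, the transcription factor that maintains B-cell identity, had -4.13, -4.80 and -4.18 in Pck1-CKO and -4.15, -4.43 and -4.55 in WT, with no difference between the means (log2 change 0.0035, 95% interval -0.51 to 0.52). The interval for Pax5 includes the changes of Cd79b and Cd22. The 3 tested B-cell receptor and surface genes summed to 1.07, 1.0 and 1.07 in Pck1-CKO and 1.38, 1.3 and 1.32 in WT.

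Cd79a, the partner chain of Cd79b, was well above background on none of the Pck1-CKO arrays but on 2 of 3 WT arrays. It read -5.91, -6.38 and -6.42 in Pck1-CKO and -5.41, -5.39 and -5.27 in WT, and by processed signal was at least 1.38-fold higher in WT. This bound sets the WT mean against, per Pck1-CKO array, the higher of the gene's own signal and the lowest signal of any probe well above background. The WT mean includes the array on which Cd79a was not well above background. Raw median signals of Cd79a were 44, 42 and 41 units in Pck1-CKO, over local backgrounds of 46, 44 and 44. In WT they were 48, 50 and 50.5 units over 44, 49 and 46, so the bound rests on signals close to background. The measured Cd79a difference of -0.88 had limma adjusted p = 0.0763 when all genes were tested without a filter on dim probes. Of the other 5 dim genes, Blk, Cd27, Cd69 and Trat1 were not well above background on any array, and Ncr1, which encodes the NK receptor NKp46, was so on 1 Pck1-CKO and 1 WT array. No level or change is given for these 5.

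None of the 6 genes of the T-cell receptor complex and co-receptors passed, 2 were lower at an unadjusted p under 0.05, and all 6 had a negative change. Cd8b1, the beta chain of the CD8 co-receptor, had -2.02, -2.03 and -1.96 in Pck1-CKO and -1.89, -1.65 and -1.65 in WT, a log2 change of -0.28 ± 0.08 (limma adjusted p = 0.0795). With normexp Cd8b1 passed at -0.24 (adjusted p = 0.0415). Cd3d, a chain of the CD3 complex, had -1.46, -1.52 and -1.66 in Pck1-CKO and -1.25, -1.25 and -1.43 in WT, a log2 change of -0.23 ± 0.08 (limma adjusted p = 0.111). Its second probe differed by -0.26 and separated the groups too. Cd3g had -3.13, -2.86 and -3.23 in Pck1-CKO and -2.98, -2.81 and -2.97 in WT, with overlapping groups.

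The brightest probe of Cd3e differed by -0.08 (95% interval -0.31 to 0.14) and its second probe by 0.02. That probe read -3.57, -3.64 and -3.76 in Pck1-CKO and -3.56, -3.48 and -3.99 in WT. Cd4, the co-receptor of helper T cells that some myeloid cells share, had 0.42, 0.23 and 0.12 in Pck1-CKO and 0.55, 0.18 and 0.24 in WT. Its groups overlapped, and the log2 change of -0.07 had a 95% interval from -0.38 to 0.24. A dim second Cd4 probe read -6.21, -5.39 and -5.61 in Pck1-CKO and -6.49, -5.98 and -5.10 in WT, a difference of 0.12. Cd8a differed by -0.08 (95% interval -0.48 to 0.32). The summed signal of this group was 2.79, 2.5 and 2.39 in Pck1-CKO and 2.97, 2.73 and 2.66 in WT, which overlap.

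None of the 3 tested receptor-proximal signalling genes passed, and 1 was lower at an unadjusted p under 0.05. Lck, the kinase that starts T-cell receptor signalling, had -0.97, -0.94 and -0.99 in Pck1-CKO and -0.77, -0.69 and -0.89 in WT. The groups did not overlap, and the log2 change was -0.18 ± 0.06 (limma adjusted p = 0.111). A dim second Lck probe ran the other way, with -4.90, -4.87 and -5.44 in Pck1-CKO and -5.28, -5.91 and -5.36 in WT. Lat had -2.76, -2.77 and -2.94 in Pck1-CKO and -2.63, -2.63 and -2.79 in WT, and Zap70 had -2.64, -2.63 and -2.5 in Pck1-CKO and -2.56, -2.25 and -2.69 in WT. Both overlapped between the groups.

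Among T-cell surface and co-stimulation genes, 4 of 5 tested were negative and none passed. Cd6, a scavenger-type receptor that tunes T-cell activation, had -2.25, -2.14 and -2.14 in Pck1-CKO and -2.02, -1.82 and -1.74 in WT, a log2 change of -0.32 ± 0.09 (limma adjusted p = 0.0726) that passed with normexp at -0.23 (adjusted p = 0.0466). Cd2, an adhesion receptor of T and NK cells, had -2.44, -2.37 and -2.44 in Pck1-CKO and -2.32, -2.01 and -2.36 in WT and separated the groups by a narrow margin. Cd5, an inhibitory receptor related to Cd6, had -2.83, -2.67 and -2.78 in Pck1-CKO and -2.79, -2.39 and -2.54 in WT, which overlap. Thy1 differed by -0.12. The co-stimulatory receptor gene Cd28 differed by 0.10 in the other direction, with a 95% interval from -0.16 to 0.37.

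Of the cytokine genes, Ltb, which encodes the lymphotoxin chain that shapes lymphoid tissue, had -1.34, -1.08 and -1.01 in Pck1-CKO and -1.01, -0.92 and -1.01 in WT. Il2rb, the receptor chain through which interleukins sustain NK and memory T cells, had -3.61, -3.27 and -3.17 in Pck1-CKO and -3.25, -3.11 and -3.23 in WT. Il7r, the survival receptor of resting T cells, had -2.64, -2.79 and -2.82 in Pck1-CKO and -2.98, -2.85 and -2.64 in WT. The groups overlapped for all 3 genes, with log2 changes of -0.16, -0.15 and 0.07 for Ltb, Il2rb and Il7r. Bcl11b, a transcription factor of the T-cell lineage, differed by 0.03 with a 95% interval from -0.19 to 0.26.

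**Figure D4:**
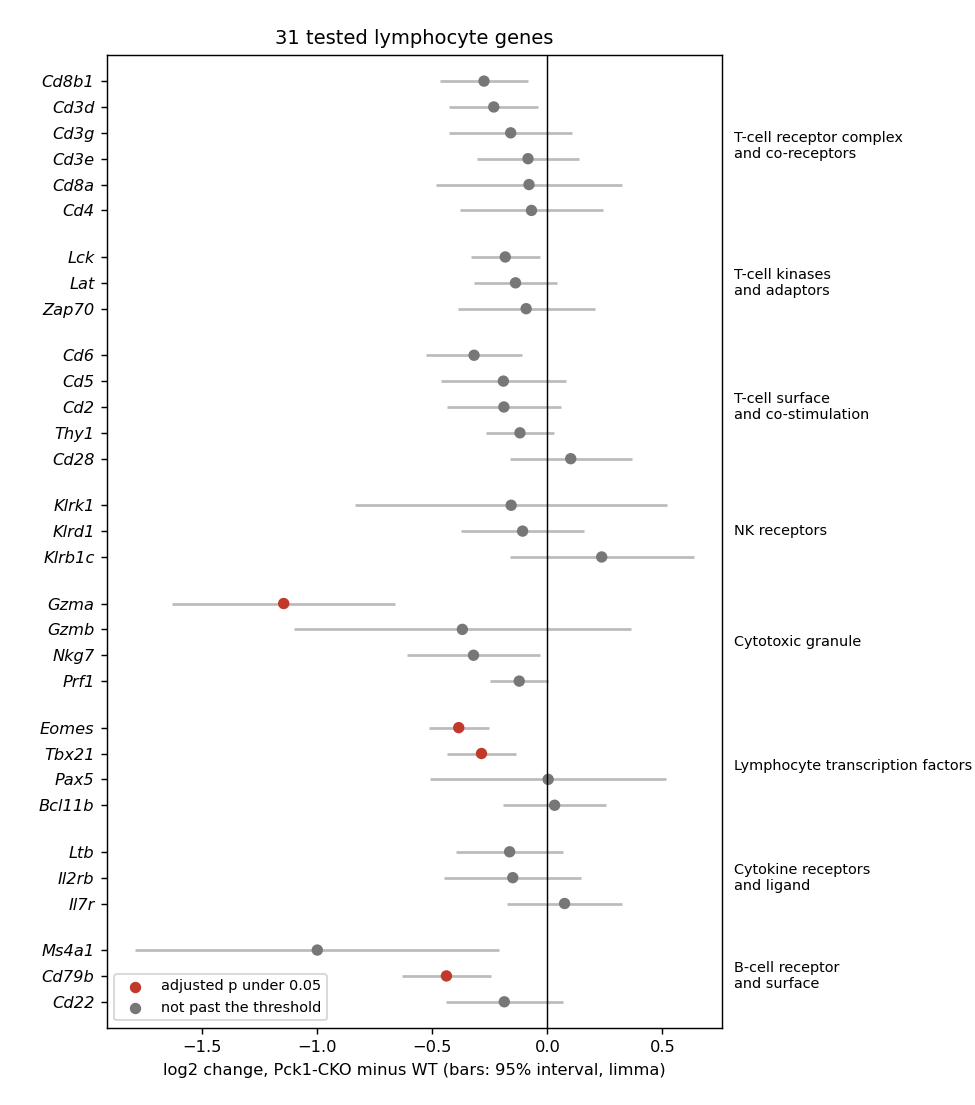
Log2 change of Pck1-CKO minus WT (horizontal axis) with its 95% interval from limma for the 31 tested lymphocyte genes, grouped by role; red points passed at an adjusted p under 0.05. The red points are Gzma, Eomes, Tbx21 and Cd79b, and the intervals of 21 of 31 genes include 0.

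Differences between cytotoxic, B-cell and T-cell genes were not tested. Their median log2 changes were -0.35 for the 4 granule genes, -0.44 for the 3 B-cell receptor and surface genes and -0.12 for the 6 genes of the T-cell receptor complex. The granule median rested on Pck1-CKO 3 and on the background correction, at -0.16 without that array and -0.20 with normexp. The median of the T-cell receptor complex was -0.073 without Pck1-CKO 3 and -0.20 without WT 1. Arrays of 1 genotype differed among themselves in which genes were low. Pck1-CKO 3 had the lowest Gzmb, Nkg7 and Klrk1 of its group and the highest Gzma, Ms4a1 and Cd79b.

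Further genes of the same cells were read from lists beside the 37. Over all tested genes, for these and the later lists, 3.7% fell and 4.34% rose at the adjusted threshold. At an unadjusted p under 0.05, 13.7% were lower and 17.5% higher, and 47.8% had a negative change. Among 18 tested genes of NK and cytotoxic cells, 4 fell (22.2%) and 0 rose, and the median log2 change was -0.20. Klra9 and Klra8, NK receptor genes of the Ly49 family, fell by 0.73 and 0.93 on the log2 scale (limma adjusted p = 0.0312 and 0.0392), Crtam, an adhesion receptor gene of activated cytotoxic cells, by 1.08 (adjusted p = 0.0349) and Cd7 by 0.46 (adjusted p = 0.0499). For Crtam the values were -5.06, -5.56 and -5.08 in Pck1-CKO and -4.37, -4.22 and -3.86 in WT. All 4 were dim, and with normexp or another alternative their log2 changes came as near to 0 as -0.25 for Klra9, -0.18 for Klra8, -0.29 for Crtam and -0.11 for Cd7. The Klra genes are near copies of each other, so signal may be shared between their probes. In Pck1-CKO, Crtam and Klra8 each exceeded background on 2 of 3 arrays.

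Of 26 tested B-cell receptor and identity genes, 1 fell (3.85%, near the share of all genes) and 1 rose, with a median log2 change of -0.18 and 19 negative (73.1%). Tnfrsf13c, which encodes the BAFF receptor needed for B-cell survival, was well above background on none of the Pck1-CKO arrays and was at least 1.84-fold higher in WT (limma adjusted p = 0.0371). It was kept for the test only through its signal on the 3 WT arrays, the group where it is higher. Its adjusted p is therefore no separate support for the difference. The fitted log2 change of Tnfrsf13c lay between -1.31 and -0.20 over 15 alternative settings, the end nearest to 0 falling short of that bound, and the call held in 6 of them. Ralgps2, an exchange factor gene, rose by 0.32 (adjusted p = 0.0262). Among 17 tested T-cell receptor signalling partners, with a median log2 change of -0.10, Ptpn22, which encodes a phosphatase that restrains Lck, rose by 0.49 (adjusted p = 0.0254). Of 17 tested genes of T-cell identity and subsets 1 fell, Lef1 by 0.56 (adjusted p = 0.0338); this transcription factor gene also acts outside T cells.

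Of 25 tested genes for signals that draw or maintain lymphocytes, 0 fell and 1 rose in limma (2 lower and 4 higher at an unadjusted p under 0.05), with a median log2 change of 0.026. The one that rose was Ccl2, a chemokine gene that recruits monocytes and some T cells, by 0.91 (limma adjusted p = 0.0464), with 0.16, -0.02 and -0.27 in Pck1-CKO and -0.87, -0.68 and -1.3 in WT. Of 18 plasma cell and immunoglobulin genes only 7 were tested, and the 10 immunoglobulin constant region genes and Tnfrsf17 were not. Derl3, which acts in degradation of proteins from the endoplasmic reticulum and is not specific to plasma cells, rose by 1.83 (adjusted p = 0.00425), and no other gene of that list passed. Of the 7 tested genes 6 had a positive change, and the median log2 change was 0.44. At an unadjusted p under 0.05, 3 were higher and 1 was lower. Their summed signal ranged from 37.4 to 39.0 in Pck1-CKO and from 32.5 to 36.8 in WT.

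Markers of other cell types moved with genotype in both directions, and their part in the lymphocyte results was not tested. Of 14 adipose tissue genes 6 rose and 0 fell, with a median log2 change of 2.89 and 13 genes higher at an unadjusted p under 0.05. Ucp1 rose by 5.23, Cox8b by 3.88 and Fabp4 by 1.25 (limma adjusted p = 0.0317, 0.0336 and 0.028), and Elovl3, not well above background in WT, was at least 3.76-fold higher in Pck1-CKO. Elovl3 was kept for the test only through its signal on the Pck1-CKO arrays. The summed signal of the list ranged from 227 to 281 in Pck1-CKO and from 103 to 125 in WT. All 14 were tested. Of 10 tested neutrophil and mast cell genes the calprotectin genes S100a8 and S100a9 rose by 1.70 and 1.61 (adjusted p = 0.0308 and 0.0328), and the sum ranged from 6.66 to 8.55 in Pck1-CKO and from 5.43 to 5.88 in WT. Cpa3 and Mcpt4 of that list were too dim to test. The red cell list ranged from 344 to 436 in Pck1-CKO and from 279 to 353 in WT; of its 7 tested genes 6 had a positive change, 5 were higher at an unadjusted p under 0.05, 0 rose after adjustment in limma, and the median log2 change was 0.36. Slc4a1, which intercalated cells of the kidney also express, fell by 0.88.

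Among other leukocyte lists, none of 16 macrophage and monocyte genes passed in limma, with 5 lower and 4 higher at an unadjusted p under 0.05, and the lowest p was that of Cybb (log2 change -0.29, adjusted p = 0.0544). Their median log2 change was -0.0083 with 8 of 16 negative, and their summed signal ranged from 176 to 188 in Pck1-CKO and from 196 to 206 in WT. Of 11 tested dendritic cell and MHC class II genes 3 fell and 1 rose. Clec9a, a receptor gene of cross-presenting dendritic cells, fell by 0.78, and the class II genes Ciita and H2-Aa by 0.19 and 0.20 (adjusted p = 0.0348, 0.0458 and 0.0485), while Cd209a rose by 0.56 (adjusted p = 0.0152). The sum of that list overlapped, from 184 to 206 in Pck1-CKO and from 195 to 221 in WT.

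Of 10 tested lymph node stroma and vessel genes 1 rose, Fcgbp by 0.60 (limma adjusted p = 0.0268), and 0 fell; Lyve1 and Madcam1 were too dim to test. At an unadjusted p under 0.05, 4 were higher and 0 lower, while 5 of the 10 had a negative change and the median log2 change was -0.046. The summed signal of that list was 7.25 to 8.28 in Pck1-CKO and 7.0 to 7.39 in WT, which overlap. The labelled tissue was borne out by its markers, since all 14 kidney epithelium genes were well above background and tested, with sums from 1103 to 1118 in Pck1-CKO and from 1045 to 1083 in WT. Among them Slc4a1 and Slc12a3 fell and Aqp2 rose.

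**Figure D5:**
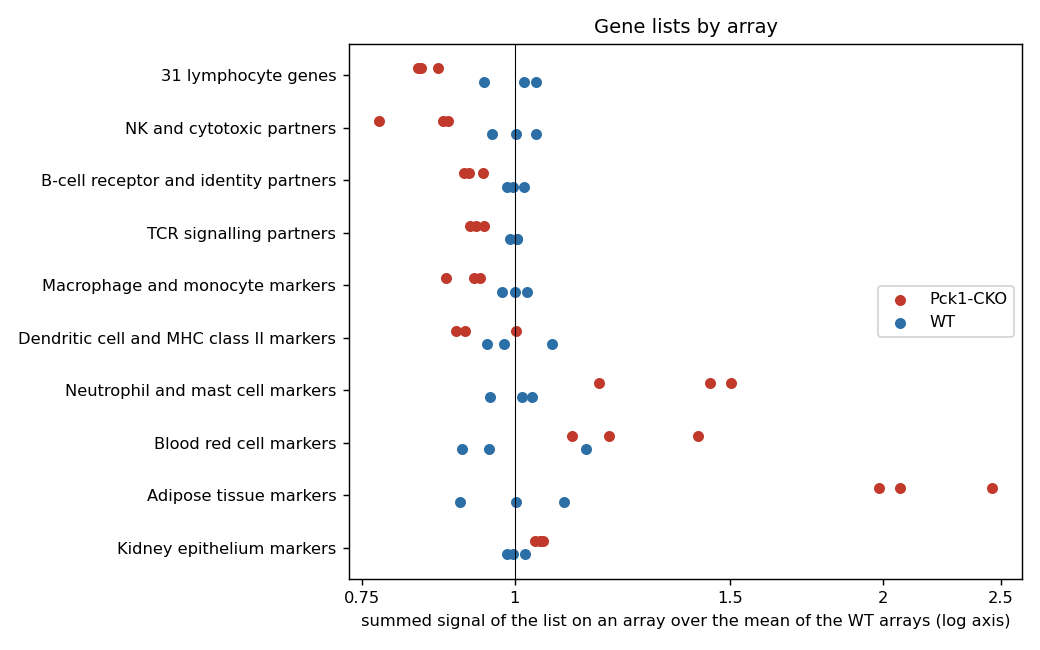
Summed signal of each gene list on each array over the mean of the 3 WT arrays (horizontal log axis; red Pck1-CKO, blue WT, 1 point per array). The sum of the 31 lymphocyte genes lies below every WT array in all 3 Pck1-CKO arrays. The same holds for the NK, B-cell, T-cell receptor signalling and macrophage lists. The neutrophil and mast cell and the kidney epithelium sums lie above every WT array, and the adipose sum lies far above. The higher neutrophil and mast cell sum rests on S100a8 and S100a9.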

How the data were processed

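Whole-kidney total RNA carried Cy3 on 1-colour Agilent arrays (per the labels). The deposited intensity values are processed signals from Feature Extraction 10.7.1.1, as the submitters' processing notes say, and per the file headers they were background-subtracted and detrended. Values in the deposited series matrix are a linear ratio, which equals the processed signal over 1 factor per array within rounding.

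Spots with outlier flags were left out (46 to 94 per array; 0 saturated), log2 values were averaged per probe, and the 75th percentile of non-control probes (529 to 583 units) was subtracted. Between 37118 and 38707 of 56605 probes lay well above background on an array; the number of arrays limits precision. Probes were named through RefSeq accessions (GRCm38.p6 table); 34670 had 1 symbol and 21935 none. The brightest complete probe stood for a gene. Genes were tested with limma 3.58.1 in R 4.3.3 (lmFit, eBayes, 2-sided, no covariates, Benjamini-Hochberg over 17131 genes, threshold 0.05); intervals are at 95%. The procedure was tested on simulated data. The members and lists were chosen with earlier results of these data known, so no test over a list was made. Every member may be named; of other lists, genes past the threshold (up to 4) or the lowest p. Normexp (offset 50) used median signals, since the files hold no mean signals. Same-numbered samples did not deviate together (r = -0.0010, -0.11 and -0.023 for numbers 1, 2 and 3, over genes), so the numbers were not used as pairs. Slide and scan were the same for every array, so neither could be a block. Some genes of the other lists are not reported here.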

Additional observations from a re-analysis of the deposited data

How the results depend on the processing

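Over all genes, 81 were lower and 61 higher without a filter on dim probes, 1149 and 1683 with a variance trend and robust fit, and 1 and 3 with sample number as a replicate block; median scaling gave 1218 higher. Leaving out 1 array gave 9 to 806 lower and 16 to 779 higher genes. Of the lymphocyte genes, 2 fell after quantile normalization, 2 with trend and robust fit, 0 without a filter, 0 with the replicate block, and 0 to 4 when 1 array was left out; 0 rose under any of these settings. Their median log2 change was -0.19 to -0.11 when 1 array was left out. The sample numbers share only a number, so calls lost under the block do not show a weaker effect. Over the 16 alternatives, 23 combinations of a lymphocyte gene and a setting changed sign. With normexp Eomes was 0.0039, Klrd1 0.0028, Klrb1c -0.020 and Pax5 -0.076. With the mean of probes Cd4 was 0.026, Lck 0.13 and Klrb1c -0.16, and with series matrix values Pax5 was -0.0013. After quantile normalization Cd8a was 0.028. Without 1 array, these genes, none of which passed, took both signs: Cd4 -0.15 to 0.046, Cd8a -0.22 to 0.053, Zap70 -0.19 to 0.033, Cd28 -0.0059 to 0.16, Klrd1 -0.17 to 0.015, Klrk1 -0.42 to 0.067, Bcl11b -0.025 to 0.10, Pax5 -0.12 to 0.22, Il7r -0.0030 to 0.17. What caused the sign changes and lost calls was not tested. Low signal over background limits the values of Eomes, Tbx21 and Cd79a. Of the combinations of a list median and a setting, 45 moved by more than the spread between arrays and 307 by less.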
